A study of Homo sapiens with 12 samples.

Results

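Transcripts of DOT1L and of the proteins that couple it to transcription elongation were followed in MDA-MB-468 cells treated with the DOT1L inhibitor EPZ5676. The set comprised 10 genes, listed by name for their place in the DOT1L, super elongation and KMT2A-menin complexes. Ensembl identifiers of the count table, without version, were matched to these symbols. Of the 10 genes, 9 had a row among the 57783 genes of the table, and all 9 passed the filter on low counts that left 16327 genes. MLLT6, which encodes AF17, matched no row and was not analysed here.

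MDA-MB-468 is an established human cell line of triple-negative breast cancer, measured by bulk RNA sequencing after flow sorting. The 4 groups were ALDH1+ cells treated with 0.5 µM EPZ5676 for 10 days, ALDH1- cells treated in the same way, ALDH1+ cells kept 10 days in the solvent DMSO, and ALDH1- cells kept in DMSO. Each group had 3 libraries, which the labels call biological replicates of this 1 line. EPZ5676 acts on the enzyme and not on its gene, so the DOT1L transcript is no check of the labels, and histone methylation was not measured in the files used here. In bulk libraries, fewer cells expressing a gene and less RNA per cell cannot be told apart.

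DOT1L is the methyltransferase that places methyl groups on lysine 79 of histone H3, a mark found over the bodies of transcribed genes. It is brought to chromatin by the related proteins AF10 (MLLT10) and AF17 (MLLT6) and by the YEATS-domain proteins ENL (MLLT1) and AF9 (MLLT3), which read acetylated or crotonylated histone tails. ENL and AF9 can instead join the super elongation complex, built on the scaffolds AFF1 and AFF4, which carries the kinase CDK9. With its cyclin, CDK9 forms P-TEFb, which phosphorylates RNA polymerase II and releases it from pausing near the promoter. KMT2A is the histone H3 lysine 4 methyltransferase that many of these genes are fused to in leukemia, and menin (MEN1) is the adaptor that KMT2A needs for binding its targets. EPZ5676 competes with the methyl donor in the catalytic site of DOT1L and was developed for KMT2A-rearranged leukemia.

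AF9 and ENL are close relatives that compete for the same partners, and MLLT3 was the only member called higher under EPZ5676 in either population, while MLLT1 was not called. The 250 bases before the start of each gene are therefore shown, 5′ to 3′ on the strand of the gene, with CCAAT boxes in capitals. Each CCAAT box here lies on the opposite strand and is therefore printed as its reverse complement, ATTGG. The sequences are from RefSeq on GRCh38.p14, at chr9:20622500-20622749 on the minus strand for MLLT3 and chr19:6279976-6280225 on the minus strand for MLLT1.
MLLT3: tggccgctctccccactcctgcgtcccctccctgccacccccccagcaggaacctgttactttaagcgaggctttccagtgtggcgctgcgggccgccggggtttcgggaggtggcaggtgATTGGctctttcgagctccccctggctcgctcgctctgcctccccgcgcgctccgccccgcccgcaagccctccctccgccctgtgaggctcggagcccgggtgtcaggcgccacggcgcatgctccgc
MLLT1: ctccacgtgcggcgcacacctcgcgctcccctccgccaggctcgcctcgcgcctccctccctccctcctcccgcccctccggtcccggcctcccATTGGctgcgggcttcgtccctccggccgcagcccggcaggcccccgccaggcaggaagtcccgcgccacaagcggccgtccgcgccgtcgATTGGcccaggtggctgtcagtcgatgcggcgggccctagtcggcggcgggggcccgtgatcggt

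Both windows are rich in CpG, with 24 CpG dinucleotides before MLLT3 and 34 before MLLT1, against a median of 11 over all 35116 promoter windows of the table. The MLLT3 window holds 1 CCAAT box and 3 GC boxes, and the MLLT1 window holds 2 CCAAT boxes and 1 GC box. Searched on both strands, the letters CCAAT occur in 32.0% of all windows. The GC box, GGGCGG, occurs in 42.6%, and its matches overlap no CCAAT box here. The letters TATAAA, found in 10.7% of windows, are in neither. Of the 10 genes, 9 matched an entry of this table, MLLT6 among them, and DOT1L matched none.

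Levels were compared between genes per length, as CPM (a gene's count scaled to the library size) per kilobase of transcript, with library sizes scaled by TMM factors (trimmed mean of M values). Over the 12 libraries KMT2A, at 21.4 ± 2.8 CPM per kilobase (SD), and AFF4, at 19.2 ± 2.2, were the highest. MEN1 at 15.7 ± 1.0 and CDK9 at 14.8 ± 0.51 CPM per kilobase followed. DOT1L itself stood at 9.34 ± 1.1 CPM per kilobase.

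Among its direct partners, MLLT1 was at 8.27 ± 0.94 and MLLT10 at 7.0 ± 0.63 CPM per kilobase. AFF1 was lower at 3.37 ± 0.31, and MLLT3 was the lowest at 0.319 ± 0.072 CPM per kilobase. In the order of levels, the libraries of neighbouring genes overlapped except at 3 places, between CDK9 and DOT1L, between MLLT10 and AFF1, and between AFF1 and MLLT3. MEN1 stood directly above CDK9 in 3 of the 4 groups and directly below it in EPZ5676 ALDH1- cells. The other 7 genes kept their rank in every group.

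**Figure D1:**
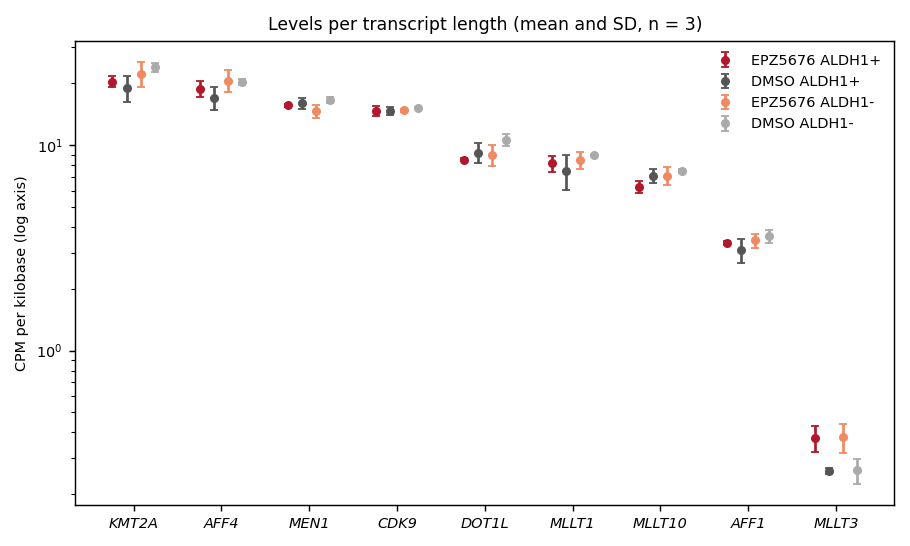
Level of each of the 9 genes per transcript length in the 4 groups, as mean CPM per kilobase on a log axis with SD (n = 3 libraries). KMT2A and AFF4 stand at the top and MLLT3 lies more than an order of magnitude below all but AFF1.

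MLLT3 encodes AF9, and its transcript was the member with the largest treatment effect. In ALDH1+ cells it was at 2.46, 2.93 and 2.22 CPM in EPZ5676 libraries 1 to 3, against 1.82, 1.75 and 1.70 CPM in DMSO libraries 1 to 3. Every EPZ5676 library lay above every DMSO library, and the DMSO libraries were closer to each other than the EPZ5676 libraries were. The log2 fold change was 0.56 (SE 0.17, 95% interval 0.19 to 0.92), a rise of 47.2%, with an adjusted p of 0.0215 in edgeR's quasi-likelihood test.

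In ALDH1- cells MLLT3 was at 2.32, 3.05 and 2.34 CPM in EPZ5676 libraries 1 to 3, against 1.98, 1.84 and 1.5 CPM in DMSO libraries 1 to 3. The groups again did not overlap, and replicate 2 was the highest EPZ5676 library in both populations. The log2 fold change was 0.54 (SE 0.18, 95% interval 0.15 to 0.93), a rise of 45.4%, with an edgeR adjusted p of 0.0443. Averaged over both populations it was 0.55 (SE 0.12), with an edgeR adjusted p of 0.00247.

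These values rest on few reads, 39 to 234 counts per library, where the other 8 genes had at least 743. In ALDH1+ cells the MLLT3 call was lost without EPZ5676 ALDH1+ replicate 2 (adjusted p 0.138), DMSO ALDH1+ replicate 2 (0.0501) or DMSO ALDH1+ replicate 3 (0.0794). In ALDH1- cells it was lost without any 1 of 7 libraries, at adjusted p from 0.0526 to 0.204 in edgeR. These were EPZ5676 ALDH1+ replicate 1, EPZ5676 ALDH1- replicates 1 and 2, DMSO ALDH1+ replicates 1 and 2, and DMSO ALDH1- replicates 2 and 3. The averaged call was kept when any 1 of the 12 libraries was left out.

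MLLT1 encodes ENL, the more abundant relative of AF9 in these cells. It was at 36.8, 33.4 and 40.0 CPM in EPZ5676 ALDH1+ cells and at 38.4, 36.8 and 26.4 CPM in DMSO ALDH1+ cells, in the order of replicates 1 to 3. The groups overlapped, and the third DMSO library stood alone at the low end. A log2 fold change of 0.12 (SE 0.12) had an edgeR adjusted p of 0.485.

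In ALDH1- cells MLLT1 was at 40.2, 40.2 and 34.0 CPM in EPZ5676 libraries and at 39.9, 40.6 and 40.4 CPM in DMSO libraries. Here it had a log2 fold change of -0.08 (95% interval -0.34 to 0.18) and an edgeR adjusted p of 0.702. As a share of MLLT3 plus MLLT1 per length, MLLT3 made up 4.45 ± 0.989% in EPZ5676 ALDH1+ cells and 3.41 ± 0.598% in DMSO ALDH1+ cells (SD, n = 3 each). The share was 4.30 ± 0.56% in EPZ5676 ALDH1- cells and 2.84 ± 0.396% in DMSO ALDH1- cells. In ALDH1+ cells the shares overlapped, since the third DMSO library, low in MLLT1, reached 4.10%, and in ALDH1- cells they did not overlap.

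DOT1L is the target of the drug. In ALDH1+ cells its transcript was at 64.0, 63.9 and 62.0 CPM in EPZ5676 libraries 1 to 3, against 75.7, 68.7 and 60.8 CPM in DMSO libraries 1 to 3. The third DMSO library lay below all 3 EPZ5676 libraries, so the groups overlapped. In the fit the log2 fold change was -0.11 (SE 0.10, 95% interval -0.31 to 0.09), with an edgeR adjusted p of 0.413. Without DMSO ALDH1+ replicate 3 the value for DOT1L was -0.19, and without DMSO ALDH1+ replicate 1 it was -0.033, neither of them called.

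In ALDH1- cells DOT1L was at 69.7, 73.0 and 57.7 CPM in EPZ5676 libraries 1 to 3, against 75.8, 85.3 and 76.5 CPM in DMSO libraries 1 to 3. All EPZ5676 libraries lay below all DMSO libraries, the third one farthest. The log2 fold change was -0.25 (SE 0.10, 95% interval -0.45 to -0.04), with an adjusted p of 0.0794 in edgeR. With the replicate number as a block, the adjusted p in edgeR was 0.0142. Leaving out EPZ5676 ALDH1- replicate 3 brought the DOT1L value to -0.15.

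Averaged over both populations, DOT1L fell by 11.6%, with a log2 fold change of -0.18 (SE 0.07, 95% interval -0.32 to -0.03) and an edgeR adjusted p of 0.0454. With the replicate block the averaged value was -0.18 (SE 0.05), with an edgeR adjusted p of 0.00786. The call without the block lay close to the threshold, and it was lost without any 1 of 9 of the 12 libraries, at edgeR adjusted p from 0.0567 to 0.122. It was kept only without EPZ5676 ALDH1- replicate 2, DMSO ALDH1+ replicate 3 or DMSO ALDH1- replicate 1. The 3 genes whose log2 CPM followed DOT1L most closely over the 12 libraries were UBE2O (Pearson r 0.97), RUFY3 (0.96) and LARP4B (0.94), among 12353 genes whose log2 CPM averaged 1 or more. The 12 libraries share the treatment, the sort and the replicate sets, so these correlations are descriptions.

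MLLT10 encodes AF10, which stimulates higher methylation states of lysine 79 by DOT1L. It was at 34.6, 31.3 and 30.7 CPM in EPZ5676 ALDH1+ cells and at 39.5, 36.2 and 33.6 CPM in DMSO ALDH1+ cells. Within each replicate number the EPZ5676 library was the lower one, while the groups overlapped. Its log2 fold change was -0.18 (SE 0.09), with an edgeR adjusted p of 0.135, and of 0.0319 with the replicate block.

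In ALDH1- cells MLLT10 was at 39.1, 37.7 and 32.3 CPM in EPZ5676 libraries and at 39.3, 38.5 and 37.5 CPM in DMSO libraries. The groups overlapped, with the third EPZ5676 library apart from the rest. Here the log2 fold change was -0.08 (SE 0.09), with an edgeR adjusted p of 0.575. Averaged over both populations it was -0.13 (SE 0.06), with an edgeR adjusted p of 0.111, and of 0.0238 with the replicate block.

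**Figure D2:**
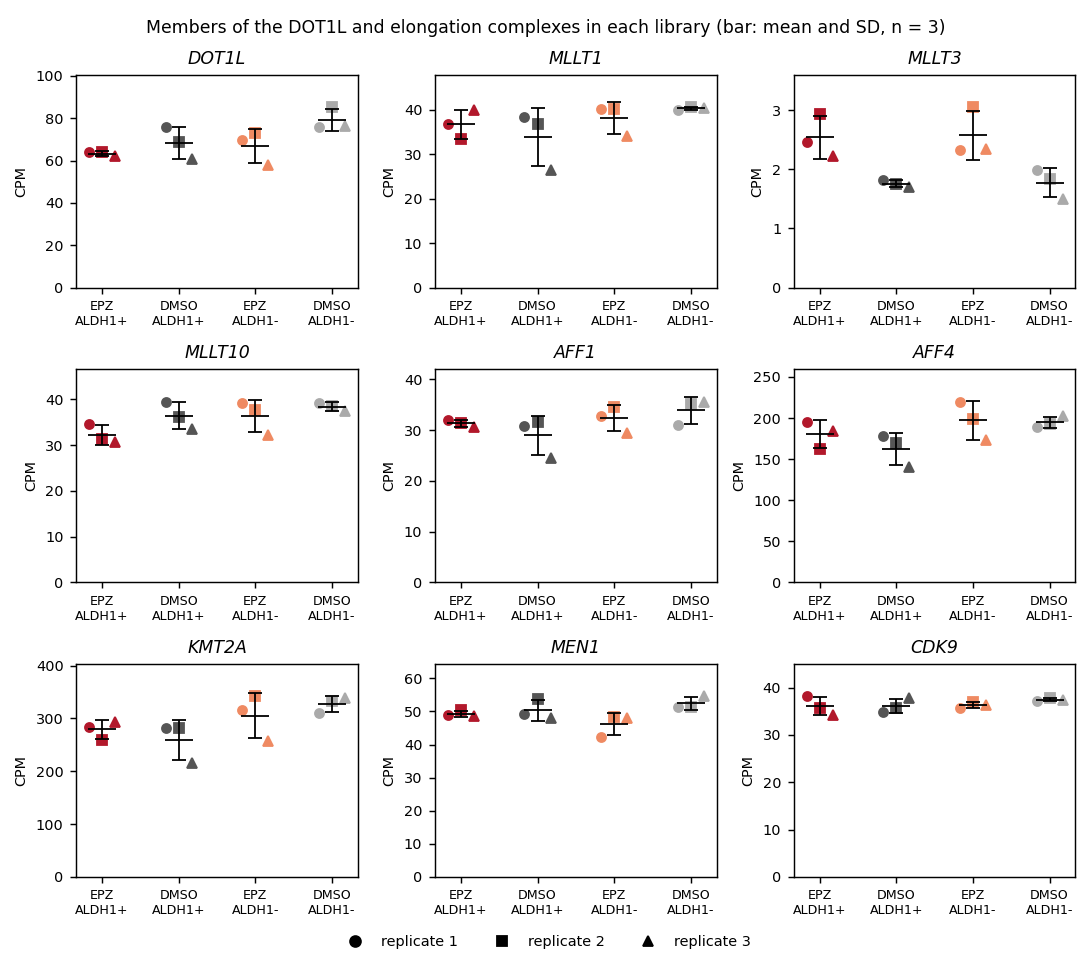
CPM of each gene in every library, by group, with the mean and SD of 3 libraries; symbols mark the replicate number and each panel has its own axis from 0. MLLT3 stands higher in both EPZ5676 groups, and DOT1L is lower in EPZ5676 ALDH1- cells than in DMSO ALDH1- cells.

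AFF1 and AFF4 encode the alternative scaffolds of the super elongation complex. AFF4 was at 195, 162 and 184 CPM in EPZ5676 ALDH1+ cells and at 178, 169 and 140 CPM in DMSO ALDH1+ cells. In ALDH1- cells it was at 220, 199 and 173 CPM in EPZ5676 libraries and at 189, 193 and 202 CPM in DMSO libraries. The groups overlapped in both populations, with log2 fold changes of 0.15 (SE 0.10) in ALDH1+ cells and 0.02 (SE 0.10) in ALDH1- cells and edgeR adjusted p of 0.29 and 0.919.

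AFF1 lay between 24.5 and 35.6 CPM in all libraries, and its log2 fold changes were 0.12 (SE 0.10) in ALDH1+ and -0.07 (SE 0.10) in ALDH1- cells, with edgeR adjusted p of 0.397 and 0.683. Per length, AFF4 made up 83.5 to 86.8% of AFF4 plus AFF1 over all libraries. CDK9, the kinase of P-TEFb, was the steadiest member, and its highest library was 1.11 times its lowest. Its log2 fold changes were -0.00 (95% interval -0.15 to 0.14) in ALDH1+ cells and -0.04 (95% interval -0.19 to 0.10) in ALDH1- cells, with edgeR adjusted p of 0.985 and 0.706.

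KMT2A was at 284, 260 and 294 CPM in EPZ5676 ALDH1+ cells and at 282, 281 and 216 CPM in DMSO ALDH1+ cells. In ALDH1- cells it was at 316, 342 and 258 CPM in EPZ5676 libraries and at 310, 333 and 339 CPM in DMSO libraries. The groups overlapped in both populations, with 1 low library in each of 2 groups. The log2 fold changes were 0.11 (SE 0.11) in ALDH1+ and -0.10 (SE 0.11) in ALDH1- cells, with edgeR adjusted p of 0.508 and 0.566.

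MEN1, the menin gene, was at 48.8, 50.4 and 48.5 CPM in EPZ5676 ALDH1+ cells and at 49.1, 53.9 and 48.0 CPM in DMSO ALDH1+ cells, and these groups overlapped. In ALDH1- cells it was at 42.3, 48.2 and 48.0 CPM in EPZ5676 libraries and at 51.3, 51.3 and 54.6 CPM in DMSO libraries. Here every EPZ5676 library was below every DMSO library. The log2 fold change in ALDH1- cells was -0.18 (SE 0.07), with an edgeR adjusted p of 0.0893, and of 0.0399 with the replicate block. In ALDH1+ cells it was -0.03 (SE 0.07), with an edgeR adjusted p of 0.793.

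Counted together, 1 of the 9 genes (MLLT3) was called higher and 0 lower in ALDH1+ cells, where 31.5% of all tested genes were called, 17.8% higher and 13.7% lower. In ALDH1- cells 1 of 9 (MLLT3 again) was called higher and 0 lower, against 22.6% of all genes called, 13.6% higher and 9.04% lower. Averaged over both populations 1 rose and 1 fell (MLLT3 and DOT1L), against 41.9% of all genes called, 21.9% higher and 20% lower.

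With the replicate block 1 gene was called higher and 1 lower in ALDH1+ cells, against 41.8% of all genes called, 22.2% higher and 19.6% lower. In ALDH1- cells the block gave 1 higher and 2 lower, against 32.2% of all genes called, 17.4% higher and 14.8% lower. In the average it gave 1 higher and 2 lower, against 49.9% of all genes, 24.9% higher and 25% lower. The MLLT3 call was among them in each comparison. The groups did not overlap for 1 of 9 genes in ALDH1+ cells, against 41.4% of all genes, and for 4 of 9 in ALDH1- cells (MLLT3, DOT1L, MEN1 and CDK9), against 39.1%.

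The changes were small. The median size of the log2 fold change was 0.12 over the 9 genes and 0.21 over all genes in ALDH1+ cells, and 0.08 over the 9 genes and 0.19 over all genes in ALDH1- cells. All genes include those of very low counts, and no comparison with genes of like counts was made. The 95% intervals of the 9 genes together ran from -0.36 to 0.92 in ALDH1+ cells and from -0.45 to 0.93 in ALDH1- cells. No interval of any of the 9 genes in either population reached a doubling or a halving.

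**Figure D3:**
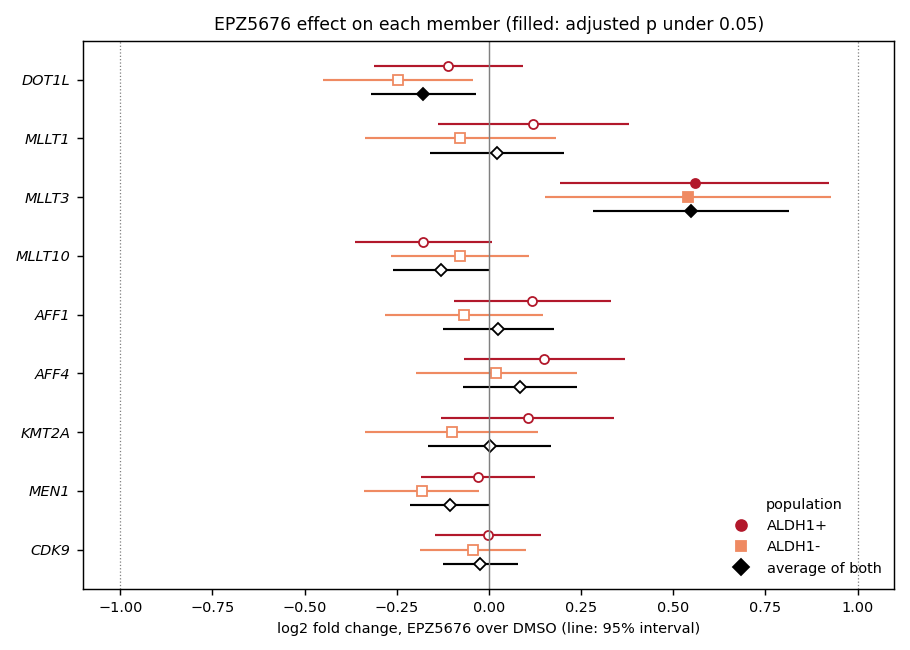
Log2 fold change of EPZ5676 over DMSO for each gene with its 95% interval, in ALDH1+ cells, in ALDH1- cells and averaged; filled symbols have an edgeR adjusted p under 0.05 and the dotted lines mark log2 changes of -1 and 1. MLLT3 lies to the right of 0 at 0.56, 0.54 and 0.55, and the other genes lie between -0.25 and 0.15.

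Whether the effect of EPZ5676 differed between the populations was tested by the interaction. For 0 of the 9 genes was the difference called in edgeR, and 0 had an unadjusted p under 0.05. Over all genes 0% were called, with 597 genes, or 3.66%, at an unadjusted p under 0.05, and DESeq2 and limma-voom also called 0 genes. The difference, ALDH1+ effect minus ALDH1- effect, was 0.14 for DOT1L (95% interval -0.15 to 0.42) and 0.02 for MLLT3 (95% interval -0.51 to 0.55) on the log2 scale. The calls with the replicate block in 1 population alone (MLLT10 in ALDH1+, DOT1L and MEN1 in ALDH1-) are therefore not shown to differ between populations.

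ALDH1+ and ALDH1- cells were then compared within each treatment. Under EPZ5676, edgeR called 0 of the 9 genes, against 0.0184% of all genes, and 0 of the 9 had an unadjusted p under 0.05, against 6.32% of all genes. DESeq2 and limma-voom called 0 of the 9 as well, against 31 and 3 of all genes. The log2 fold changes of ALDH1+ over ALDH1- cells ran from -0.18 for MLLT10 to 0.09 for MEN1, and MEN1 was the only gene whose groups did not overlap, against 9.57% of all genes.

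In DMSO, edgeR called 0 of the 9 genes, against 0% of all genes, while 4 of the 9 and 17.8% of all genes had an unadjusted p under 0.05. DESeq2 and limma-voom called 0 of the 9, against 298 and 0 of all genes. All 9 genes had a negative log2 fold change, with a median of -0.21 over the 9 and -0.01 over all genes. KMT2A, with 282, 281 and 216 CPM in DMSO ALDH1+ cells and 310, 333 and 339 CPM in DMSO ALDH1- cells, had the largest, at -0.34 (SE 0.11, edgeR adjusted p 0.178). With the replicate block the adjusted p of KMT2A was 0.0397 in edgeR, and 8.48% of all genes were called.

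The other 3 genes under an unadjusted p of 0.05 in DMSO were AFF4 at -0.26, AFF1 at -0.23 and DOT1L at -0.21, and MLLT1 stood at -0.26. Their edgeR adjusted p ran from 0.217 for AFF4 to 0.286 for MLLT1. Without DMSO ALDH1+ replicate 3 the values were -0.21 for KMT2A, -0.16 for AFF4, -0.11 for AFF1, -0.13 for DOT1L and -0.09 for MLLT1. With all libraries the groups did not overlap for KMT2A, AFF4, MLLT1 and DOT1L, which is 4 of 9 genes against 23.1% of all genes.

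KMT2A, MLLT1, AFF1, AFF4 and DOT1L moved together from library to library within the groups. Deviations from the group mean leave out the treatment and the sort beforehand, so they say nothing on either. Taken as deviations from the group mean over the 12 libraries, KMT2A correlated with MLLT1 at r = 0.92, with AFF1 at 0.89, with AFF4 at 0.85 and with DOT1L at 0.83. MLLT10 lay between, at r = 0.70 with KMT2A and 0.82 with DOT1L, while MLLT3, MEN1 and CDK9 were at r = 0.10, 0.15 and -0.36 with KMT2A. The points share their libraries and group means, so these values are descriptions.

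KMT2A has the longest transcript of the set, 13678 bases, AFF4 and AFF1 have 9552 and 9390 bases, and DOT1L has 7436. MLLT3 has 6772 bases, MLLT10 5126, MLLT1 4507 and MEN1 3150, and CDK9 has the shortest, 2463 bases. The median deviation of the 793 genes with transcripts of at least 8614 bases, the longest 5%, moved with these members from library to library. Its correlation over the 12 libraries was 0.98 with KMT2A, 0.94 with MLLT1, 0.91 with AFF1, 0.90 with AFF4, 0.82 with DOT1L and 0.70 with MLLT10. It was 0.10 with MEN1, -0.02 with MLLT3 and -0.43 with CDK9. Their order was not the order of the members' own lengths, since MLLT1 is shorter than MLLT3.

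The extreme libraries were EPZ5676 ALDH1- replicate 3, with the long transcripts at -0.08 and KMT2A at -0.23 log2 from their group mean, and DMSO ALDH1+ replicate 3, with -0.12 and -0.26. DMSO ALDH1+ replicate 3 was also among the deepest libraries. Without it, the log2 fold changes of KMT2A and MLLT1 in ALDH1+ cells were -0.01 and -0.04, against 0.11 and 0.12 with it. AFF4 and AFF1 were then at 0.05 and 0.0043, against 0.15 and 0.12 with it. That library decides the sign of the values of KMT2A and MLLT1, and none of the 4 was called.

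When each library was corrected for its trend of log2 CPM with transcript length, a step chosen after the data were seen, MLLT3 was called in both populations. MLLT10 was then called lower in ALDH1+ cells (log2 fold change -0.22, edgeR adjusted p 0.0417), and DOT1L was called lower in ALDH1- cells (-0.23, edgeR adjusted p 0.0428). With this correction and the replicate block together, DOT1L was called lower in both populations, at -0.17 (edgeR adjusted p 0.0215) in ALDH1+ cells and -0.23 (edgeR adjusted p 0.00427) in ALDH1- cells. KMT2A was called in neither fit for ALDH1+ against ALDH1- cells in DMSO. Whether the length pattern has a part in the uncorrected values was not tested.

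**Figure D4:**
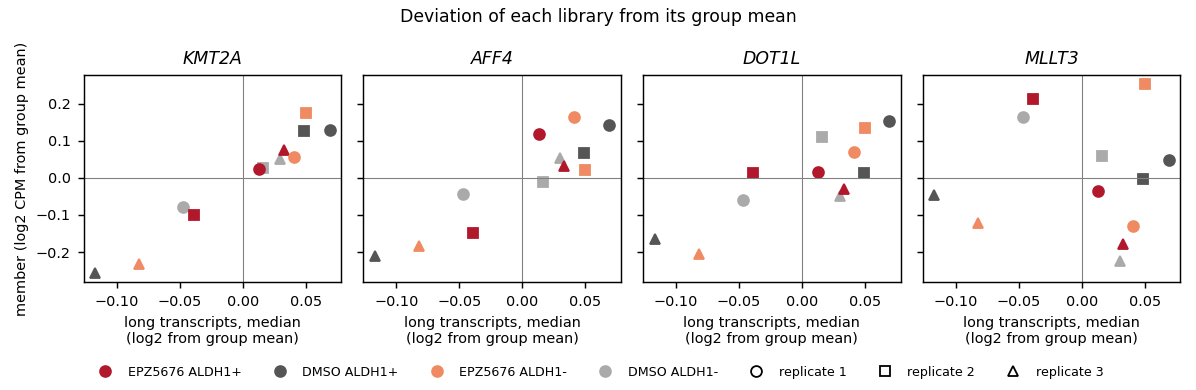
Deviation of KMT2A, AFF4, DOT1L and MLLT3 from their group mean (log2 CPM, vertical) against the median deviation of the longest 5% of transcripts (log2, horizontal), 1 point per library. KMT2A follows the long transcripts closely (r = 0.98), DOT1L less so (0.82), and MLLT3 does not (-0.02).

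The rest of the pathway was described by 7 lists with 46 genes, of which 43 passed the filter; AFF2, AFF3 and KMT2B did not. Averaged over both populations, 2 of the 43 rose and 8 fell, which is 23.3%, against 41.9% of all genes. With the replicate block 3 rose and 13 fell, against 49.9% of all genes. In ALDH1+ cells 2 rose (ELL2 and SUPT5H) and 4 fell (PSIP1, RTF1, NELFCD and NELFB), against 31.5% of all genes called. In ALDH1- cells 1 rose (ELL2) and 2 fell (HCFC1 and NELFCD), against 22.6% of all genes. When single libraries were left out, the ALDH1+ calls of PSIP1, RTF1, SUPT5H and NELFB were lost without 3, 3, 2 and 1 of the 12, at edgeR adjusted p from 0.0594 to 0.174. The ALDH1- calls of NELFCD and HCFC1 were lost without 6 and 3 of the 12, at edgeR adjusted p from 0.0503 to 0.135.

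With the block these counts were 4 higher and 9 lower in ALDH1+ cells, against 41.8% of all genes called, and 1 higher and 6 lower in ALDH1- cells, against 32.2%. The genes added in ALDH1+ cells were EAF1 and SUPT6H, higher, and ASH2L, DPY30, HCFC2, ELL3 and LARP7, lower. Those added in ALDH1- cells included PSIP1 (blocked edgeR adjusted p 0.00215), RTF1 and ASH2L, all lower. Genes called with the block alone were named after their values were seen.

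Among the 7 tested subunits of the super elongation complex and P-TEFb outside the set, 1 rose and 1 fell in the average, with a median log2 fold change of 0.08. Of all genes 41.9% were called, 21.9% higher and 20% lower. With the block 2 rose and 2 fell, since EAF1 (log2 fold change without the block 0.13, blocked edgeR adjusted p 0.0355) and CCNT2 (-0.14, 0.0113) were added. The block called 49.9% of all genes. ELL2, an elongation factor that raises the rate of RNA polymerase II, rose in both populations. It was at 293, 279 and 278 CPM in EPZ5676 ALDH1+ cells against 178, 188 and 175 CPM in DMSO ALDH1+ cells. In ALDH1- cells it was at 287, 294 and 267 CPM under EPZ5676 against 188, 204 and 182 CPM in DMSO.

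All EPZ5676 libraries stood far above all DMSO libraries for ELL2, and no library stood apart within its group. Its log2 fold changes were 0.65 (SE 0.07) in ALDH1+ and 0.56 (SE 0.07) in ALDH1- cells, with edgeR adjusted p of 3.63e-06 and 2.12e-05. ELL3, a relative of ELL2, fell by 1.19 on the log2 scale in the average (SE 0.32, edgeR adjusted p 0.00802). Its levels were very low, from 0.122 to 0.246 CPM in EPZ5676 libraries and from 0.212 to 0.728 CPM in DMSO libraries. The lowest, EPZ5676 ALDH1- replicate 1, stood at the level of 3 counts. ELL3 passed the filter on low counts through DMSO libraries, where it was higher, so its call is no independent evidence of a fall.

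In the KMT2A-menin complex list 3 of 7 tested genes fell in the average and 0 rose, with a median log2 fold change of -0.21, against -0.02 over all genes and 20% of all genes called lower. With the block 4 fell, against 25% of all genes called lower, HCFC2 (log2 fold change without the block -0.33, blocked edgeR adjusted p 0.00533) being the added gene. The 3 called without the block were PSIP1, which encodes LEDGF, the chromatin tether of menin and KMT2A, at -0.33 (SE 0.09, edgeR adjusted p 0.0115), ASH2L, a core subunit of the methyltransferase, at -0.22 (SE 0.07, 0.028), and the cofactor HCFC1 at -0.21 (SE 0.07, 0.0239). PSIP1 was at 79.8, 95.7 and 108 CPM in EPZ5676 ALDH1+ cells, against 109, 118 and 144 CPM in DMSO ALDH1+ cells. In ALDH1- cells PSIP1 was at 76.6, 84.1 and 102 CPM under EPZ5676, against 92.6, 108 and 114 CPM in DMSO. In all 4 groups replicate 3 was the highest. The treatments did not overlap in ALDH1+ cells and overlapped in ALDH1- cells, where the log2 fold change was -0.26 (SE 0.13, edgeR adjusted p 0.187). KMT2A and MEN1 themselves were not called in this average.

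Of 7 pausing factors, 3 fell and 1 rose in the average, against 41.9% of all genes called, 21.9% higher and 20% lower. NELFCD, NELFB and NELFA, subunits of the negative elongation factor that holds the paused polymerase, fell by 0.25 (SE 0.05, edgeR adjusted p 0.00099), 0.18 (SE 0.04, 0.00367) and 0.17 (SE 0.05, 0.0221) on the log2 scale. NELFE, the remaining subunit, was at -0.08 (SE 0.05, edgeR adjusted p 0.257). SUPT5H, a subunit of DSIF, which takes part in pausing and in elongation, rose by 0.18 (SE 0.06, edgeR adjusted p 0.0221).

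In the PAF1 complex list, an elongation platform, 1 of 6 genes fell, RTF1 at -0.24 (SE 0.06, edgeR adjusted p 0.00347), against 20% of all genes called lower. In the lists of P-TEFb control (5 genes), writers of histone H2B ubiquitin (5 genes) and other YEATS and AF10-type readers (6 genes), edgeR called 0 genes in either direction, against 41.9% of all genes called. At an unadjusted p under 0.05 these lists held 1, 0 and 1 genes, and the share of all genes at that threshold is not given here. DESeq2 and limma-voom called 0 in each list, against 6741 and 6910 of all genes. With the replicate block edgeR called 2 genes of P-TEFb control lower, MEPCE (log2 fold change without the block -0.11, blocked adjusted p 0.0283) and LARP7 (-0.19, 0.0314), which stabilise the RNA that holds P-TEFb inactive, and the reader YEATS2 (-0.17, 0.0115). The block called 25% of all genes lower. In the average, the calls of HCFC1, ASH2L, NELFA and SUPT5H were each lost when single libraries were left out, 4, 6, 2 and 5 of the 12, at edgeR adjusted p from 0.0508 to 0.08. Since ELL3 passed the filter through DMSO libraries, its call remains no independent evidence of a fall. The averaged calls of ELL2, ELL3, PSIP1, RTF1, NELFCD and NELFB were kept without any 1 library. Without a whole replicate number, those of ELL3 (edgeR adjusted p 0.132 without number 1 and 0.0569 without number 2), PSIP1 (0.131 without number 2) and NELFB (0.102 without number 2) were lost.

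**Figure D5:**
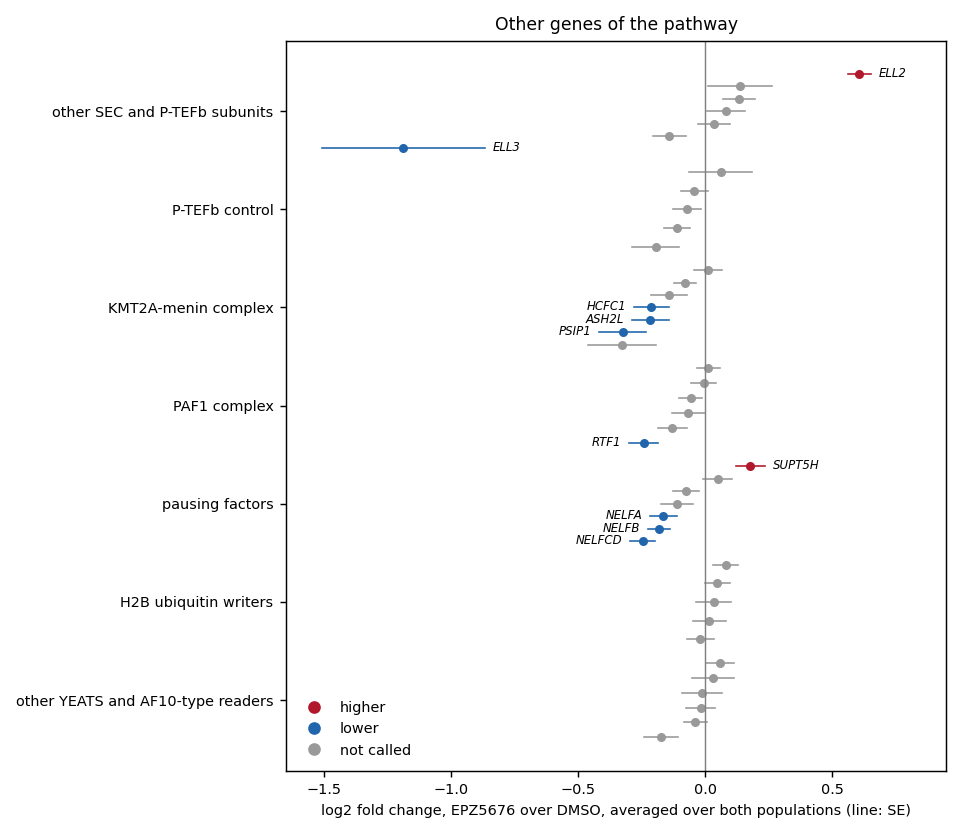
Log2 fold change of EPZ5676 over DMSO, averaged over both populations, for the 43 tested genes of the 7 lists, with SE; red marks genes called higher, blue genes called lower (edgeR adjusted p under 0.05) and grey the rest. ELL2 stands apart at 0.61 and ELL3, a gene of very low counts, at -1.19, and most other genes lie within 0.3 of 0.

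Total counts lay between 24348594 and 29368821 in 10 libraries and were 80195050 in EPZ5676 ALDH1+ replicate 2 and 58004508 in DMSO ALDH1+ replicate 3. Defining markers of the line were high (EPCAM 520 to 781 CPM, EGFR 4600 to 11500 CPM), and PGR was at 0 in 11 of 12 libraries, while ESR1 was at 6.83 to 10.8 CPM. ALDH1A3, an aldehyde dehydrogenase used to check the sort, was at 1820 to 2060 CPM in EPZ5676 ALDH1+ cells against 1410 to 1510 CPM in EPZ5676 ALDH1- cells, and at 1470 to 1860 CPM in DMSO ALDH1+ cells against 1360 to 1380 CPM in DMSO ALDH1- cells. Its groups did not overlap, with edgeR adjusted p of 0.157 under EPZ5676 and 0.171 in DMSO, and of 0.0158 and 0.0417 with the replicate block. ALDH1A1 did not separate the sorted cells under EPZ5676, at 9.41 to 13.2 CPM in ALDH1+ and 10.5 to 13.9 CPM in ALDH1- cells (edgeR adjusted p 0.984). In DMSO it overlapped too, at 27.9 to 38.3 CPM in ALDH1+ and 23.4 to 28.6 CPM in ALDH1- cells (edgeR adjusted p 0.201, and 0.0254 with the block). ALDH1A2, at 5.19 to 9.46 CPM in all, overlapped between the sorted cells in both treatments. ALDH1A1 itself fell under EPZ5676, by log2 fold changes of -1.51 in ALDH1+ and -1.08 in ALDH1- cells (edgeR adjusted p 3.74e-06 and 0.000136). ALDH1A3 rose in ALDH1+ cells (0.25, edgeR adjusted p 0.0288) and was not called in ALDH1- cells (0.08, 0.532). ALDH1A2 was likewise called higher in ALDH1+ cells (0.415, edgeR adjusted p 0.0474), with overlapping groups, and not called in ALDH1- cells (0.195, 0.413). Whether the sort took like cells in both treatments was not tested.

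Of the marker lists of other cell types, the sum of the 4 fibroblast genes was higher under EPZ5676 in both populations. The sum of the 2 measured endothelial genes, at very low levels, separated the treatments in ALDH1+ cells only. The fibroblast genes summed to 18.4 to 24.9 CPM in EPZ5676 libraries and 8.87 to 14 CPM in DMSO libraries, nearly all of it COL1A1, with DCN at 0 in all 12 and COL3A1 at 0 in 7 libraries. The 4 leukocyte genes summed to 1.03 to 3.75 CPM over all libraries. The endothelial sum was 0.414 to 0.573 CPM in EPZ5676 ALDH1+ cells against 0.199 to 0.248 CPM in DMSO ALDH1+ cells, and 0.456 to 0.938 CPM in EPZ5676 ALDH1- cells against 0.23 to 0.476 CPM in DMSO ALDH1- cells, where the groups overlapped. The 6 epithelial genes summed to 15700 to 17700 CPM in EPZ5676 ALDH1+ cells against 13800 to 15000 CPM in DMSO ALDH1+ cells, and to 15200 to 17900 CPM in EPZ5676 ALDH1- cells against 14800 to 16000 CPM in DMSO ALDH1- cells. The part of these shifts in the treatment effects of the members was not tested.

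Reads could not be assigned without doubt for some members, since the strand setting of the counting is not given in the sources used here. In GENCODE 29 the exons of DOT1L share 529 bases with PLEKHJ1 and 764 bases with an antisense transcript, both on the opposite strand. Exons of KMT2A share 5599 bases with another annotated protein-coding gene on the same strand and 317 bases with an antisense transcript, and those of CDK9 share at most 91 bases with each of 2 microRNA genes. MLLT1, MLLT3, MLLT10, AFF1, AFF4 and MEN1 share no exonic base with another gene there.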

How the data were processed

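Per the labels, RNA of 12 sorted libraries was sequenced with a directional kit. Reads were trimmed with Trim Galore and aligned with STAR to build hg19, per the submitters' processing notes. No source used here states how reads were assigned to genes, with which strand setting or annotation. The deposited values are raw counts, 1 whole number per gene and library. Symbols from a GENCODE table were found for 51959 of the 57783 identifiers.

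The count model was edgeR 4.0.16 under R 4.3.3, with filterByExpr by group, TMM scaling and 4 group means in 1 quasi-likelihood fit. A call is a Benjamini-Hochberg adjusted p under 0.05 over 16327 genes. Each SE is the log2 fold change over the root of its F statistic. The common biological coefficient of variation was 9.6%, and replicates differed by a chi-square per degree of freedom of 4.05 to 34.8, so none were alike within counting error. Transcript lengths are those of the longest principal transcript in GENCODE 29 on GRCh38.

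Members and lists were chosen with earlier results of these data known. Genes outside the set were named by rule: from each list up to 4 called genes with the smallest p in the averaged effect, the 3 genes most like DOT1L, and ALDH1A1 and ALDH1A3 for the sort. ALDH1A2 is from the sort marker list. The values of 1 listed gene are not reported here.

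Same-numbered replicates of different groups deviated together from their group means in all 18 pairs (r of 0.17 to 0.65 over 12354 genes). Pairs of different numbers ran from r = -0.66 to 0.22, so the ranges overlapped at their edge. For each library, the closest library of every other group carried its own number (36 of 36 cases), so the numbers were taken to pair the libraries. A blocked fit on the replicate number is therefore given for the members, the lists' treatment effects and the sort genes wherever it changes a call or moves a count by over 1.5 times.

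Other settings were RLE scaling, unscaled totals, no filter, a filter of 1 CPM in 3 libraries, DESeq2 1.42.0, limma-voom (limma 3.58.1), separate fits per pair of groups, and omission of each library or of each replicate number. A length correction (lowess of log2 CPM on transcript length in each library) was added after the data were seen.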

Additional observations from a re-analysis of the deposited data

How the results depend on the processing

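Counts of members called depended on the setting. In ALDH1+ cells (1 in the main analysis) the replicate block gave 2, the length correction 2 and both together 3, and leaving out libraries gave 0 to 1. Over all genes the counts were 5141 in the main analysis, 6820 with the block, 5329 with the length correction and 7122 with both. Leaving out libraries gave 2155 to 5450. In ALDH1- cells (1) no filter gave 0, the block 3, the length correction 2, both together 3, the fit of only the groups compared 0, DESeq2 0 and limma-voom 0, and leaving out libraries 0 to 1. Here the counts over all genes were 3695 in the main analysis, 4090 with no filter, 5260 with the block, 3915 with the length correction and 5635 with both. They were 3711 with only the groups compared, 3799 in DESeq2 and 3540 in limma-voom, and 1405 to 3967 with libraries left out. In the average (2) total counts gave 1, the filter of 1 CPM 1, limma-voom 1, length correction with block 4, and leaving out libraries 0 to 2. All-gene counts in the average were 6846 in the main analysis, 6613 with total counts, 6164 with the filter of 1 CPM and 6910 in limma-voom. They were 8384 with length correction and block, and 3644 to 7083 with libraries left out. For ALDH1+ against ALDH1- cells in DMSO (0) no filter gave 1 (KMT2A, log2 fold change -0.32, edgeR adjusted p 0.00493) and the block 1. Among all genes 0 were called there in the main analysis, 948 with no filter and 1384 with the block. For the interaction and for ALDH1+ against ALDH1- cells under EPZ5676 every setting gave 0. At most 37 and 235 of all genes were called in these 2 comparisons, both with no filter.

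MLLT3 was positive in all 25 settings in both populations. Its call in ALDH1- cells was lost in edgeR with no filter (adjusted p 0.0868) and with only the groups compared (0.0555), in DESeq2 (0.0642) and in limma-voom (0.0584). Without a whole replicate number it was lost too, at edgeR adjusted p of 0.0848, 0.353 and 0.115 for numbers 1, 2 and 3. The MLLT3 call in ALDH1+ cells was lost without number 1 (edgeR adjusted p 0.071) or 2 (0.253). Its averaged call was lost only without replicate 2 in all groups (log2 fold change 0.42, edgeR adjusted p 0.0953). DOT1L stayed negative in the 3 treatment comparisons in every setting. Its averaged call was lost with total counts (edgeR adjusted p 0.0846), the filter of 1 CPM (0.0572) and limma-voom (0.0507). It was also lost without replicate number 1 (edgeR adjusted p 0.143) or 2 (0.181) in all groups.

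Values near 0 changed sign. CDK9 in ALDH1+ cells was 0.021 with total counts, 0.0066 with the filter of 1 CPM, 0.0068 with only the groups compared, 0.017 with the length correction and 0.015 with that and the block. KMT2A in the average was -0.00023 with the length correction and -0.00036 with that and the block. The interaction of MLLT3 was -0.021 with the block, -0.056 with the length correction and -0.092 with both. When libraries were left out, the log2 fold change in ALDH1+ cells ran from -0.107 to 0.251 for MLLT1, -0.055 to 0.215 for KMT2A, -0.065 to 0.019 for MEN1, -0.069 to 0.062 for CDK9 and -0.240 to 0.041 for HCFC1. In ALDH1- cells it ran from -0.123 to 0.0062 for MLLT1, -0.126 to 0.0035 for MLLT10, -0.141 to 0.038 for AFF1, -0.087 to 0.141 for AFF4 and -0.190 to 0.040 for KMT2A. In the average it ran from -0.056 to 0.070 for MLLT1, -0.030 to 0.057 for AFF1, -0.056 to 0.057 for KMT2A and -0.052 to 0.013 for CDK9. The interaction ran from -0.012 to 0.271 for DOT1L and -0.129 to 0.158 for MLLT3. None of these values was called. The cause of these changes was not tested. MLLT3 has the least precision, with 39 counts in its lowest library.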
